A study of Canis lupus familiaris with 15 samples.

Results

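RXFP1 (ENSCAFG00000008672) encodes the receptor for relaxin, and it is 1 of the 23630 genes whose reads were counted in the canine corpus luteum (CL). It was chosen by name, with earlier results of these data known. The CL of 15 clinically healthy cross-breed bitches aged 2 to 8 years were sequenced, with 1 library per dog. The comparisons ask how the natural end of luteal function before birth differs from its end after an antigestagen and from the slow regression of the CL in the absence of pregnancy.

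The 5 mid-gestation dogs were pregnant and at days 35 to 40 after ovulation. The 5 antigestagen dogs were at days 40 to 45 and had received aglepristone, a blocker of the progesterone (P4) receptor, at 10 mg/kg in 2 applications 24 h apart, with collection 24 h after the last. The 3 luteolysis dogs were in active prepartum luteolysis. Their CL were taken once P4 lay under 2 to 3 ng/ml for 3 plasma samples in a row. Plasma was sampled every 6 h from day 58 of pregnancy. The 2 luteal regression dogs were not pregnant and were at day 65 after ovulation. No vehicle-treated group was part of the design, and the antigestagen dogs were later in pregnancy than the mid-gestation dogs, so that the drug and the day cannot be told apart. Likewise, pregnancy and day cannot be told apart between luteal regression and any other group. The luteolysis dogs were later in pregnancy than the mid-gestation and antigestagen dogs, so that luteolysis and day cannot be told apart there. The tissue was whole CL trimmed of surrounding ovary, a mixture of luteal, vascular, stromal and immune cells.

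Relaxin is a peptide hormone of the insulin superfamily. Its receptor, RXFP1, is a G protein-coupled receptor with a large leucine-rich ectodomain that acts mainly through Gs, adenylyl cyclase and cyclic AMP, and it is also coupled to nitric oxide signalling in vessels. Relaxin is known for its effects on the turnover of connective tissue and on vessels in reproductive organs, and the dog placenta is the main source of circulating relaxin in pregnancy. The related peptide INSL3 acts mainly through the sister receptor RXFP2 and is a classical product of Leydig and theca cells.

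Total counts per dog ran from 8558743 (Citir, antigestagen) to 26284315 (Kurtulus, mid-gestation). Levels are given as CPM on library totals scaled with TMM, and the interval of a single dog is the exact 95% binomial (Clopper-Pearson) interval, which covers counting error only. The library of Amy stood apart from the other 2 luteolysis dogs. The chi-squared per degree of freedom was 275 between Amy and Kimba and 178 between Amy and Senta, against 71.6 between Kimba and Senta. Amy had 4.95 CPM of PDE4D and 0.225 CPM of MMP1, whereas Kimba and Senta had 86.2 and 87.5 CPM of PDE4D and 322 and 280 CPM of MMP1. For the dog Nescafe the title and the condition say mid-gestation, whereas its description carries the group number of the antigestagen dogs. The condition was followed. The contrasts of RXFP1 that include Nescafe or Amy are given with and without them, and the correlations of RXFP1 with RLN1, INSL3 and the TMM factor were not computed with only these dogs left out.

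The label of the tissue could be checked only in part. None of the 8 luteal marker genes could be paired with an identifier. GATA4 and GATA6, transcription factors of ovarian steroidogenic cells, were read in all 15 dogs, at 59.1 to 134 CPM and 16.6 to 50.6 CPM. Of the 5 follicle markers 2 had an identifier. FSHR, the receptor of follicle-stimulating hormone, was at 461 to 1944 CPM and INHBA, an inhibin and activin subunit, at 15.02 to 105 CPM. No follicle was sequenced beside the CL.

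Reads of RXFP1 were found in every dog, 2000 in all. In luteolysis, Amy had 2.70 CPM (36 reads, interval 1.89 to 3.74), Kimba 4.86 CPM (123 reads, 4.04 to 5.80) and Senta 1.51 CPM (26 reads, 0.985 to 2.21). In luteal regression, Lissy had 17.8 CPM (365 reads, 16.1 to 19.8) and Mara 10.1 CPM (196 reads, 8.70 to 11.6). The lowest dog of luteal regression thus lay above the highest dog of luteolysis, with intervals that do not meet.

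After antigestagen, Citir had 11.3 CPM, Suzan 6.87, Zeynep 4.64, Birnur 4.27 and Seran 2.13 CPM of RXFP1. At mid-gestation, Nescafe had 15.8 CPM, Kurtulus 11.1, Gold 5.79, Turgay 3.85 and Dardanel 2.65 CPM. Both of these groups therefore ran from within the range of luteolysis to above Mara, the lower dog of luteal regression. Lissy, Nescafe and Citir were the 3 highest of all dogs and came from 3 different groups. Counting error was small beside this spread, from 5.23% of the value in Lissy to 19.6% in Senta.

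**Figure D1:**
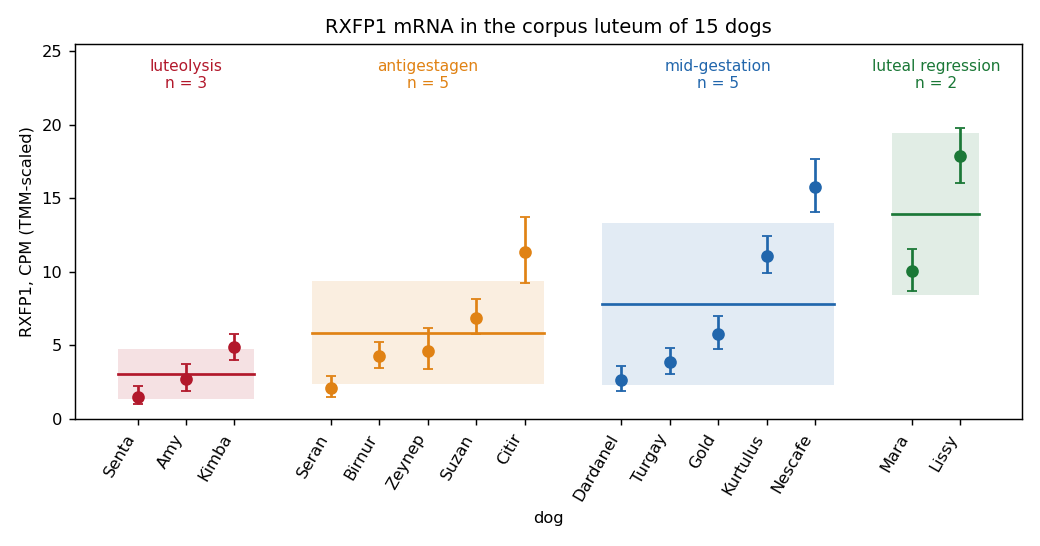
RXFP1 in CPM (vertical axis, TMM-scaled) for each of the 15 dogs (horizontal axis) by group; bars are exact 95% binomial intervals of the single dog, lines the group means and shaded bands mean ± SD. The 2 luteal regression dogs (10.1 and 17.8 CPM) lie above the 3 luteolysis dogs (1.51 to 4.86 CPM), and the antigestagen and mid-gestation dogs reach into both ranges.

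The mean level of RXFP1 was lowest in luteolysis (3.02 ± 1.70 CPM, SD, n = 3), followed by antigestagen (5.85 ± 3.50, n = 5), mid-gestation (7.84 ± 5.50, n = 5) and luteal regression (14.0 ± 5.51, n = 2). No pair of neighbours in this order differed beyond the spread between dogs. Without Nescafe the mean of mid-gestation was 5.85 CPM, the same to 3 digits as that of antigestagen. Without Amy the mean of luteolysis was 3.18 CPM.

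Dogs of 1 group differed more in RXFP1 than they did in most genes. The highest dog had 5.96 times the level of the lowest at mid-gestation, 5.32 times after antigestagen, 3.23 times in luteolysis and 1.77 times in luteal regression. The pooled SD within groups was 0.91 on the log2 scale, against a median of 0.41 over the 14922 genes in the fit, and it exceeded that of 89.4% of the 500 genes nearest in mean level. Group accounted for 41.6% of the variance of RXFP1 in log2 CPM, against a median of 31.9% over genes. A test of any difference between the 4 groups did not pass (edgeR quasi-likelihood F-test, Benjamini-Hochberg adjusted p = 0.235).

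A gene was called a DEG in a contrast if the edgeR quasi-likelihood F-test gave p below 0.01 and, after Benjamini-Hochberg adjustment, below 0.1. RXFP1 was no DEG in any of the 6 contrasts. Exact two-sided permutation tests of log2 CPM, adjusted over the 6 contrasts, stand beside them, and every group comparison below comes from the same 15 dogs, so that contrasts that share a group are not independent.

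Contrast: “luteal regression over luteolysis”. RXFP1 was 4.57 times as high in luteal regression, with a 95% interval of 1.56 to 13.4 times. All 6 pairs of 1 dog from each group had the higher value in luteal regression. The log2 ratio was 2.19 (SE 0.73), with p = 0.00863 in edgeR (adjusted p = 0.127) and an exact permutation p of 0.1 (adjusted 0.3), the smallest that 2 against 3 dogs allow. The edgeR p-value thus passed its limit and the adjusted one did not. Of the 14768 genes tested, 5.11% were DEG (1.52% higher and 3.58% lower in luteal regression), 7.43% passed the limit of 0.01 before adjustment, and in 38.1% the groups did not overlap, as in RXFP1. The call depended on the method and on 1 dog. RXFP1 was a DEG with the DESeq2 Wald test (2.23, adjusted p = 0.0383), with limma-voom, used here with quality weights that give some dogs less weight (2.56, adjusted p = 0.0154) and, in edgeR, without Kimba (2.73, adjusted p = 0.0933), with adjusted p-values from 0.0933 to 0.57 over the 5 edgeR fits that leave out 1 dog. Without Amy the log2 ratio was 2.15 (adjusted p = 0.15).

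Contrast: “mid-gestation over luteolysis”. The level of RXFP1 at mid-gestation was 2.57 times that in luteolysis (95% interval 1.03 to 6.42 times), with a log2 ratio of 1.36 (SE 0.62). The edgeR adjusted p-value was 0.232. Mid-gestation was higher in 12 of 15 pairs of dogs, Dardanel and Turgay lay within the range of luteolysis, and the exact permutation p was 0.143 (adjusted 0.3). In this contrast 8.16% of genes were DEG (2.43% higher and 5.73% lower at mid-gestation). The log2 ratio was 0.95 without Nescafe and 1.30 without Amy.

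Contrast: “mid-gestation over antigestagen”. RXFP1 did not separate these groups. Its log2 ratio was 0.44 (SE 0.51, 95% interval −0.65 to 1.52) with an edgeR adjusted p = 0.902, mid-gestation was higher in 14 of 25 pairs, and the exact permutation p was 0.595. The interval leaves room for a level 2.87 times as high or 0.639 times as high at mid-gestation. Without Nescafe the log2 ratio was 0.02. No gene was a DEG in edgeR (0%), although 980 genes (6.81%) were below 0.05 before adjustment, and DESeq2 and limma-voom called 87 and 18 genes.

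Contrast: “luteolysis over antigestagen”. The level in luteolysis was 0.527 times that after antigestagen, with a log2 ratio of −0.92 (SE 0.61, 95% interval −2.23 to 0.38) and an edgeR adjusted p = 0.455. Luteolysis was higher in 4 of 15 pairs, the groups overlapped, and the exact permutation p was 0.25 (adjusted 0.3). In this contrast 4.75% of genes were DEG (3.12% higher and 1.62% lower in luteolysis). The log2 ratio was −0.55 without Citir, −1.47 without Kimba and −0.86 without Amy.

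Luteal regression was further set against the groups in pregnancy. RXFP1 was 1.78 times as high as at mid-gestation (log2 ratio 0.83, SE 0.64, edgeR adjusted p = 0.544) and higher in 8 of 10 pairs, with a log2 ratio of 1.25 without Nescafe. It was 2.41 times as high as after antigestagen (log2 ratio 1.27, SE 0.64, edgeR adjusted p = 0.313) and higher in 9 of 10 pairs, the exception being Citir against Mara. The exact permutation p-values were 0.238 and 0.19 (both adjusted 0.3). The edgeR test called no gene in either contrast, while 2073 (14.1%) and 2496 genes (17.1%) were below 0.05 before adjustment, DESeq2 called 332 and 920, and limma-voom with quality weights called 2741 and 2408, among them RXFP1 in the contrast with antigestagen (1.40, adjusted p = 0.0447). In that contrast its adjusted p-values ran from 0.194 to 0.806 over the edgeR fits without 1 dog.

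A difference between contrasts was tested as well, luteolysis against luteal regression on the one side and antigestagen against mid-gestation on the other. Since the luteal regression dogs were not pregnant, pregnancy and day enter this difference, and luteolysis and antigestagen are compared directly only in the contrast of these groups above. For RXFP1 this difference was −1.75 on the log2 scale (SE 0.88, 95% interval −3.63 to 0.13, edgeR adjusted p = 0.429), and 0 genes were DEG. Without Nescafe it was −2.17 and without Amy −1.71, with edgeR adjusted p-values of 0.333 and 0.425. It was not shown that the contrasts differ in RXFP1.

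**Figure D2:**
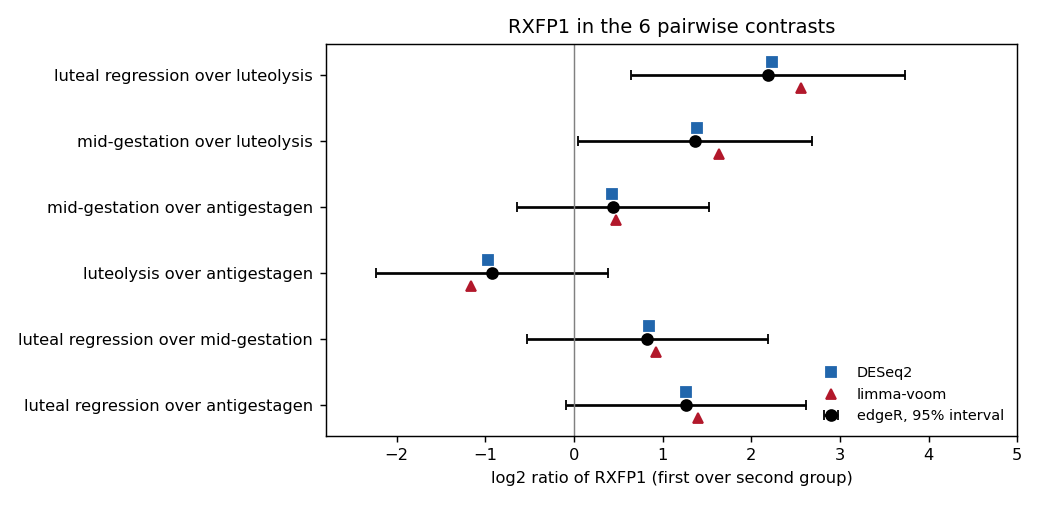
Log2 ratio of RXFP1 (horizontal axis) in the 6 contrasts (vertical axis); black points are edgeR estimates with 95% intervals, squares DESeq2 and triangles limma-voom with quality weights. The interval stays above 0 for “luteal regression over luteolysis” (2.19) and just above 0 for “mid-gestation over luteolysis” (1.36), and the other 4 cross 0.

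RXFP1 moved with the scaling of the libraries. The TMM factor, which corrects library totals for the make-up of the RNA, ran from 0.823 (Zeynep) to 1.23 (Lissy) and correlated with log2 CPM of RXFP1 over the 15 dogs (Pearson r = 0.65, permutation p = 0.00885, adjusted over 3 relations 0.0266; Spearman rho = 0.66, permutation p = 0.00878). This relation was chosen after the values had been seen. Without Lissy and Mara, the farthest from the median, r was 0.50 (n = 13, permutation p = 0.0829). For deviations from group means r was 0.60, and with library totals left unscaled it was 0.73. The mean of RXFP1 in luteal regression was 16.9 CPM on unscaled totals.

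Of the ligands, 2 of the 7 listed genes could be paired with an identifier, and of the 4 receptors RXFP1 alone. RXFP2, RXFP3 and RXFP4 were not analysed here. The gene called RLN1 in the names used here (ENSCAFG00000002115) is listed in RefSeq as RLN2, with relaxin and RLN1 as synonyms, and encodes the relaxin peptide itself. It had few reads. In luteolysis, RLN1 was at 1.13 CPM in Amy, 0.638 in Senta and 0.514 CPM in Kimba, from 11 to 15 reads each. At mid-gestation it was at 3.55 CPM in Gold, 2.98 in Turgay, 2.08 in Dardanel, 1.26 in Nescafe and 1.01 CPM in Kurtulus, from 24 to 68 reads each. The mid-gestation dogs thus reached higher, but Kurtulus lay below Amy.

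After antigestagen RLN1 was at 2.78 CPM in Citir and between 0.887 and 1.41 CPM in the other 4 dogs, and in luteal regression at 1.66 CPM in Lissy and 1.08 CPM in Mara. The log2 ratio of “mid-gestation over luteolysis” was 1.53 (SE 0.55, edgeR adjusted p = 0.129). RLN1 was thus no DEG there, but it was one with DESeq2 (1.56, adjusted p = 0.0513) and, in edgeR, without Kurtulus (1.72, adjusted p = 0.0981). In “luteal regression over luteolysis” the log2 ratio of RLN1 was 0.87 (SE 0.65) and in “luteolysis over antigestagen” −0.87 (SE 0.55), with adjusted p-values of 0.493 and 0.425.

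The order of dogs in RXFP1 and RLN1 was alike in some groups and not in others. Nescafe and Kurtulus, the highest mid-gestation dogs in RXFP1, were the lowest of their group in RLN1, whereas Citir was the highest antigestagen dog in both and Lissy exceeded Mara in both. Over the 15 dogs Pearson r between receptor and ligand was 0.24 (permutation p = 0.387, adjusted over 3 relations 0.58) and Spearman rho 0.29 (permutation p = 0.3). Without Gold and Turgay, the farthest from the median in RLN1, r was 0.39 (n = 13), and for deviations from group means it was −0.0517. Leaving out the mid-gestation dogs gave r = 0.63 (permutation p = 0.0456 before adjustment), and leaving out the luteolysis dogs gave −0.0130. These alternatives went different ways, so that no relation between receptor and ligand was shown.

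INSL3 was lowest in luteolysis. In luteolysis Amy had 230 CPM, Kimba 87.8 and Senta 53.8 CPM of INSL3, and in luteal regression Lissy had 454 and Mara 478 CPM. After antigestagen the level was 3187 CPM in Seran, 1951 in Zeynep, 817 in Suzan, 718 in Birnur and 287 CPM in Citir. At mid-gestation it was 2147 CPM in Dardanel, 1982 in Turgay, 1280 in Kurtulus, 1074 in Nescafe and 789 CPM in Gold. Luteolysis lay below every dog of the other 3 groups.

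INSL3 was lower in luteolysis than in both groups of mid-pregnancy. The log2 ratio was 3.55 in “mid-gestation over luteolysis” (SE 0.74, edgeR adjusted p = 0.0178) and −3.49 in “luteolysis over antigestagen” (SE 0.74, edgeR adjusted p = 0.0306). Groups that do not overlap, as here, were found in 9.76% and 7.74% of genes. Without Senta these adjusted p-values were 0.129 and 0.23 (log2 ratios 3.22 and −3.12), and without Kimba the latter was 0.111 (−3.29). With the dogs of luteolysis and antigestagen alone it was 0.155 (−3.49). In “luteal regression over luteolysis” the log2 ratio was 1.91 (SE 0.77, adjusted p = 0.197). It passed with DESeq2 (1.95, adjusted p = 0.0833), with limma-voom and quality weights (2.75, adjusted p = 0.00165) and without Amy (2.75, adjusted p = 0.0601). Over the 15 dogs INSL3 and RXFP1 had a Pearson r of 0.09 (permutation p = 0.763, adjusted 0.763) and a Spearman rho of −0.15 (permutation p = 0.599). The r was −0.41 without Senta and Kimba (n = 13) and −0.53 for deviations from group means. Seran, the antigestagen dog with most INSL3, had least RXFP1 of its group, and Citir had least INSL3 and most RXFP1.

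**Figure D3:**
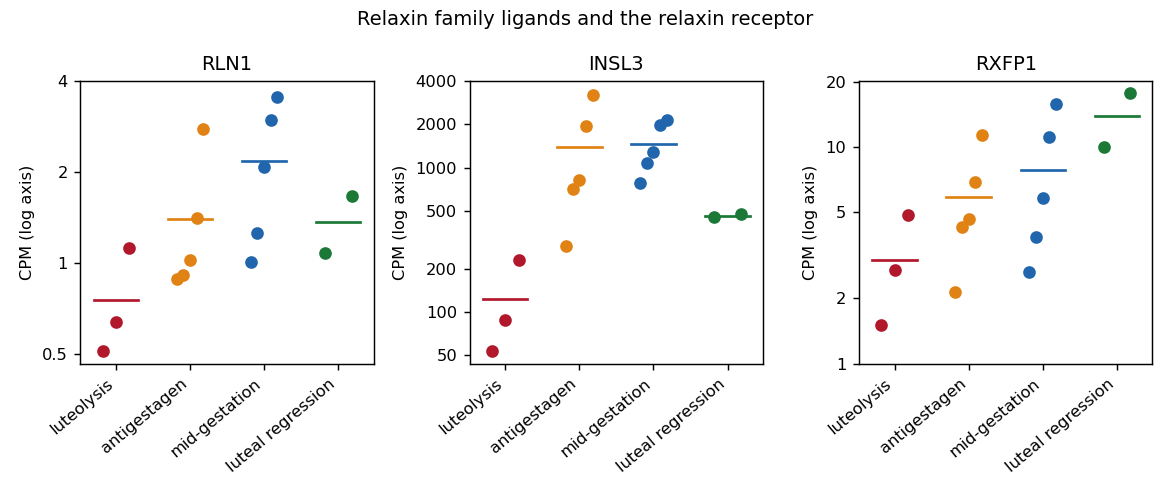
CPM of RLN1, INSL3 and RXFP1 (vertical log axes, a separate scale for each gene) by group (horizontal axis); points are dogs and lines group means. INSL3 is at most 230 CPM in the 3 luteolysis dogs and at least 287 CPM in all others, whereas RLN1 and RXFP1 overlap between most groups.

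RXFP1 stands in a list of extracellular matrix genes that was drawn up on these same dogs for “luteal regression over luteolysis”, so that the direction of its members is no independent evidence. The other 8 genes of the list were tested. All 8 had a positive log2 ratio in that contrast, with a median of 1.39 against −0.05 over all genes, and 4 of them were DEG (1.52% of all genes were called higher). CRISPLD2, a secreted protein of the cysteine-rich secretory family, had a log2 ratio of 1.87 (SE 0.38, edgeR adjusted p = 0.0463). EGFLAM, also called pikachurin and a ligand of dystroglycan, was at 1.47 (SE 0.41, adjusted p = 0.0804), SPOCK2, a matrix proteoglycan also called testican-2, at 1.41 (SE 0.31, adjusted p = 0.0473) and EMILIN1, a glycoprotein of elastic fibres, at 1.11 (SE 0.33, adjusted p = 0.0899). COL27A1, PDGFRA, ECM2 and SMOC2 were at 1.85, 1.37, 1.29 and 1.20 and were no DEG.

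These calls depended on which dogs were in the fit, while the log2 ratios of the 4 genes stayed positive. Without Senta all 4 calls were lost, and of all genes tested only 5 were DEG in this contrast. The calls were also lost without Lissy or Mara, where luteal regression is left with 1 dog. EGFLAM was lost without Amy as well (1.26, adjusted p = 0.101). Without Kimba, COL27A1 (3.25), PDGFRA (1.79) and ECM2 (1.63) became DEG (adjusted p-values 0.0461, 0.0658 and 0.0771). The log2 ratios of CRISPLD2 stayed between 1.51 and 2.22, of EGFLAM between 1.15 and 2.01, of SPOCK2 between 1.21 and 1.58 and of EMILIN1 between 0.81 and 1.47 in the fits without 1 dog. In “mid-gestation over luteolysis” 4 of the 8 rose (CRISPLD2, SPOCK2, EMILIN1 and SMOC2; 2.43% of all genes), and in “luteolysis over antigestagen” 2 fell (SPOCK2 and EMILIN1; 1.62% of all genes). SPOCK2 was called in all 8 fits of “mid-gestation over luteolysis” that leave out 1 dog (1.34 to 1.57). Without Senta the other 3 were lost there (CRISPLD2 1.23, EMILIN1 1.05 and SMOC2 1.18, adjusted p-values 0.25, 0.231 and 0.353), as were both calls in “luteolysis over antigestagen” (SPOCK2 −1.65 and EMILIN1 −1.16, adjusted p-values 0.104 and 0.267). EMILIN1 was also lost without Nescafe (0.87) or Gold (0.97) at mid-gestation and without Birnur (−1.04) after antigestagen, CRISPLD2 without Amy (1.01), and SMOC2 kept its call only without Kurtulus.

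The genes of the list followed RXFP1 across dogs to very different degrees. Among the 12150 genes averaging 50 reads or more, ECM2 had rank 4 by correlation with RXFP1 in log2 CPM (r = 0.87 over 15 dogs) and EGFLAM rank 9 (0.85), while PDGFRA was at 0.73, CRISPLD2 at 0.68, COL27A1 at 0.61, SMOC2 at 0.58, EMILIN1 at 0.56 and SPOCK2 at 0.26. The order of these values is not that of the log2 ratios. SPOCK2 separated luteolysis (20.0 to 26.8 CPM) from the other groups (47.9 to 112 CPM) but ran against RXFP1 within groups (r of deviations from group means −0.35). ECM2 and EGFLAM followed RXFP1 also within groups (0.79 and 0.73).

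**Figure D4:**
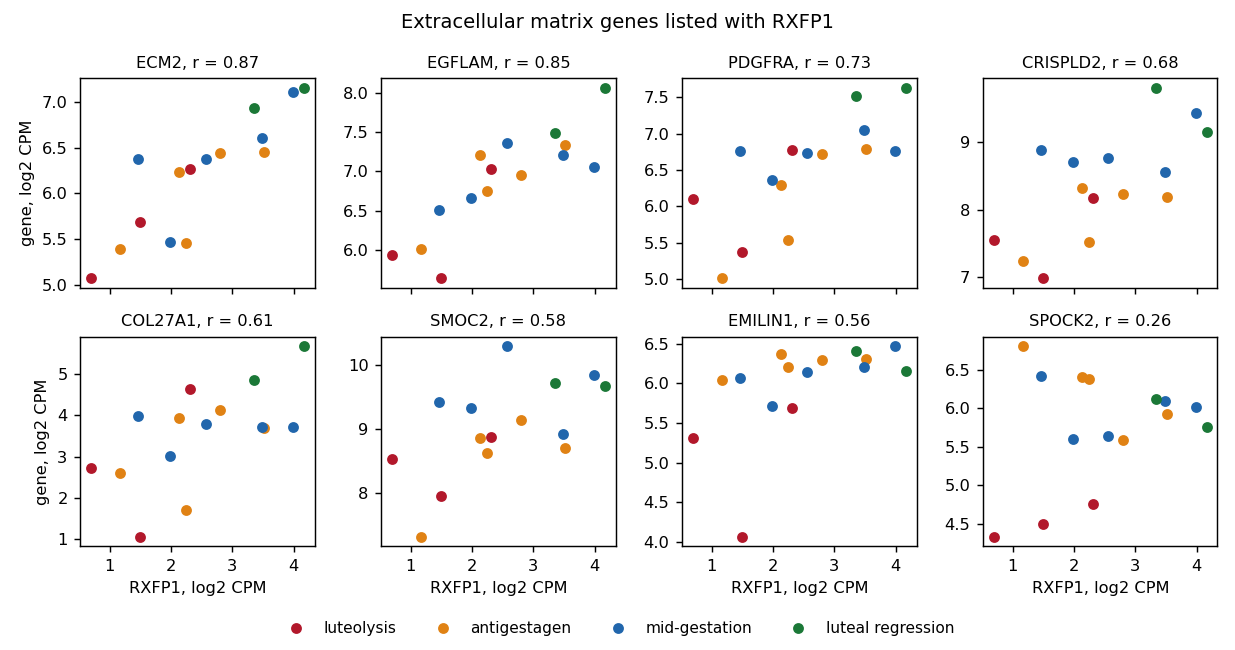
Log2 CPM of 8 extracellular matrix genes (vertical axes) against log2 CPM of RXFP1 (horizontal axes), 1 point per dog, coloured by group, with Pearson r over the 15 dogs. ECM2 (0.87) and EGFLAM (0.85) follow RXFP1 within and between groups, and SPOCK2 (0.26) sets only luteolysis apart.

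Over all 12150 genes, r with RXFP1 had a median of −0.05 and quartiles of −0.35 and 0.29, with 43 genes above 0.8 and 66 below −0.8. Since genes were picked for their r, these values are a description. The same dogs enter the contrasts, so that calls of genes picked for high or low r are no independent evidence. The most alike were NEO1 (0.90), the cell surface receptor neogenin, OLFML1 (0.89), a secreted protein with an olfactomedin domain, and ECM2 (0.87), a matrix protein. A further 3 of the 6 highest carry no name here, among them ENSCAFG00000007903 (0.89) and ENSCAFG00000008310 (0.87). NEO1 was at 92.5 and 99.0 CPM in luteal regression and between 27.0 and 57.1 CPM in luteolysis, the same order as RXFP1, and it was a DEG in “luteal regression over luteolysis” (log2 ratio 1.31, SE 0.35, edgeR adjusted p = 0.0719), in a contrast that had 5, 0 and 1 DEG among all genes without Senta, Lissy and Mara. OLFML1, with a log2 ratio of 1.08, was not (adjusted p = 0.101).

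None of the 4 genes with the lowest r carries a name here. ENSCAFG00000009902 (r = −0.90) was at 46.6 and 49.1 CPM in luteal regression and at 70.1 to 83.0 CPM in luteolysis. ENSCAFG00000012038 had an r of −0.90 as well. ENSCAFG00000009857 (r = −0.89) was a DEG in “luteal regression over luteolysis” (log2 ratio −1.08, edgeR adjusted p = 0.0858), and the others of these 4 were not. That contrast had 5 DEG among all genes without Senta. On unscaled totals r was −0.81 for ENSCAFG00000009902, −0.71 for ENSCAFG00000012038 and −0.51 and −0.72 for the other 2. The 6 highest were then between 0.89 and 0.92. Unscaled totals shift all genes of a dog alike, by the TMM factor, which correlated with RXFP1. Negative r is weakened by this shift and positive r is not, so that these values do not show which r is free of the scaling. For deviations from group means, the 4 highest r were between 0.87 and 0.91, and ENSCAFG00000008310 (0.89) was in both sets.

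**Figure D5:**
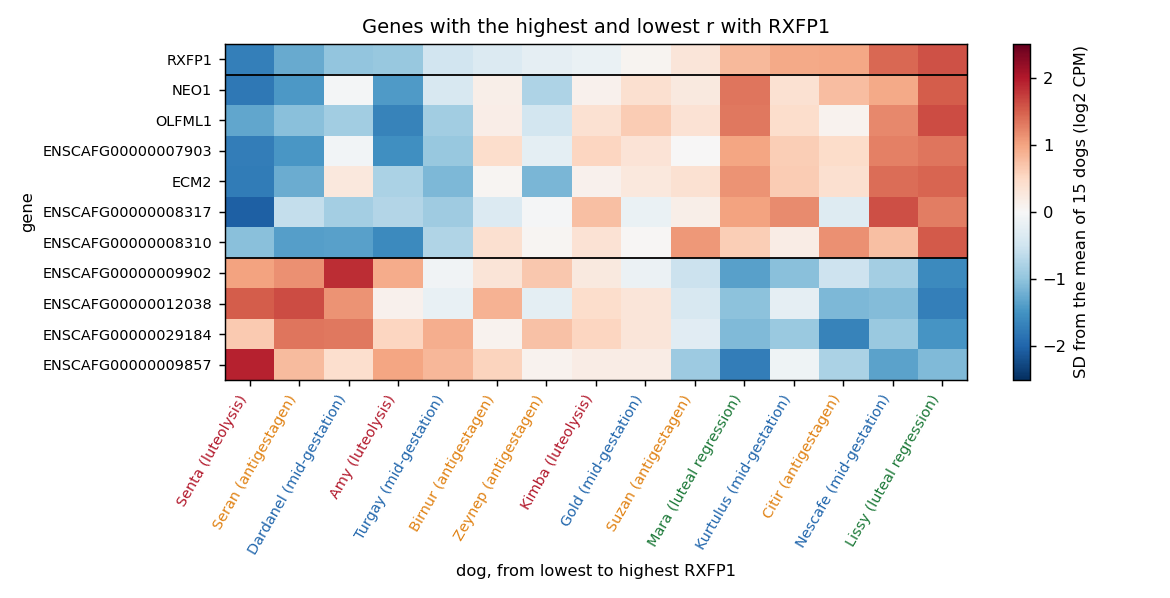
Log2 CPM of RXFP1, the 6 genes with the highest and the 4 with the lowest r (vertical axis), each as SD from its mean over the 15 dogs (colour), with dogs ordered by their RXFP1 level (horizontal axis) and named with their group. Dogs of 1 group are spread along the order, from Seran and Dardanel near the low end to Citir and Nescafe near the high end.

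Genes of the path from the receptor to cyclic AMP were then looked up, 14 of 35 listed ones having an identifier. All lists here hold only genes that had been named for a difference in these dogs, so that their counts are high by choice. In “luteal regression over luteolysis” 2 of 14 rose and 2 fell, where 1.52% and 3.58% of all genes did (median log2 ratio 0.06). In “mid-gestation over luteolysis” 2 rose and 4 fell, against 2.43% and 5.73% of all genes (median 0.50). In “luteolysis over antigestagen” 2 were higher and 1 lower in luteolysis, against 3.12% and 1.62% of all genes (median −0.22). The medians of all genes in these contrasts were −0.05, −0.02 and 0.02. In all 3 contrasts PDE4D and PDE4B, phosphodiesterases that degrade cyclic AMP, were higher in luteolysis, and ADCY9, an adenylyl cyclase that makes it, was lower. The families were mixed. PDE4C (2.08, 2.09 and −1.27), PDE4A (1.36, 0.53 and −0.68) and the cyclase ADCY4 (−1.28, −0.46 and 0.13) had the opposite sign and were no DEG, whereas PDE7B (−0.94, −1.29 and 0.77) and the cyclases ADCY2 (1.33, 0.52 and −0.18) and ADCY5 (1.11, 0.58 and −0.26) had the same sign. The second value of PDE7B and the first of ADCY2 passed the test. Without Senta, 0, 1 and 0 members were called in the 3 contrasts, the 1 being PDE4D. The calls of PRKACA (0.61), GNAI3 (−0.49) and PDE7B in “mid-gestation over luteolysis” held in only 2 of 8 fits that leave out 1 dog, and without Senta they were at 0.50, −0.39 and −1.18.

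PDE4D had a log2 ratio of −3.83 in “luteal regression over luteolysis” (SE 0.95, edgeR adjusted p = 0.06), −4.51 in “mid-gestation over luteolysis” (SE 0.67, adjusted p = 0.00734) and 3.88 in “luteolysis over antigestagen” (SE 0.66, adjusted p = 0.0168; without Senta 3.48, adjusted p = 0.114). It was high in Kimba and Senta alone, and without Amy the log2 ratios were −4.34, −5.06 and 4.43. Amy (4.95 CPM) lay within the 0.992 to 5.78 CPM of the other 12 dogs. ADCY9 was at 50.3 to 63.4 CPM in luteolysis and at 72.5 to 104 CPM in the other groups, with log2 ratios of 0.72, 0.62 and −0.69 in the same 3 contrasts (adjusted p-values 0.0664, 0.0387 and 0.0392). Of the called members ADCY2, another adenylyl cyclase, correlated most with RXFP1 (r = 0.70). ADCY2 was at 28.7 and 29.1 CPM in luteal regression against 8.26 to 15.1 CPM in luteolysis (log2 ratio 1.33, SE 0.40, adjusted p = 0.0969). The 5 fits of “luteal regression over luteolysis” without 1 dog gave log2 ratios from −4.34 to −3.40 in PDE4D and from −2.19 to −0.87 in PDE4B. ADCY9 ran from 0.67 to 0.86 and ADCY2 from 1.18 to 1.58. Calls in “luteal regression over luteolysis” were lost without Senta, Lissy or Mara, as for the matrix genes, and that of ADCY2 also without Amy (1.18, adjusted p = 0.135). Without Senta that of ADCY9 was lost in the other 2 contrasts as well (0.57 and −0.63, adjusted p-values 0.197 and 0.232), and without Kimba too (0.58 and −0.66, adjusted p-values 0.131 and 0.123). PDE4B, at −1.38, −1.35 and 1.21, was lost in all 3 contrasts without Senta (−1.05, −1.05 and 0.92), and in the last also without Kimba (1.29), Birnur (1.18) or Zeynep (1.15).

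Of 33 listed genes of matrix turnover 16 had an identifier. In “luteal regression over luteolysis” 1 rose and 1 fell (1.52% and 3.58% of all genes; median log2 ratio −0.16), and in “mid-gestation over luteolysis” 4 rose and 4 fell (2.43% and 5.73% of all genes; median 0.13). In “luteolysis over antigestagen” 2 were higher and 1 lower in luteolysis (3.12% and 1.62% of all genes; median −0.35). Without Senta, 0, 1 and 0 members were called in these contrasts, the 1 being MMP1. In “mid-gestation over luteolysis” this took away COL1A1 (1.79), COL3A1 (1.17), SMAD2 (0.91), TIMP3 (−1.86), TGFBR1 (−0.80) and SMAD7 (−1.52), beside MMP2. Of the 8 fits of that contrast without 1 dog, COL3A1 was called in 2, COL1A1 in 4 and SMAD2 in 5. TIMP3 and SMAD7 were called in 6 and TGFBR1 in 7. MMP2, a gelatinase, was at 64.6 to 107 CPM in luteolysis and at 122 to 337 CPM elsewhere. It was lower in luteolysis in each of these contrasts (log2 ratios 1.10, 1.36 and −1.06, edgeR adjusted p-values 0.0904, 0.0159 and 0.0568) and had r = 0.68 with RXFP1. Without Senta none of these MMP2 calls held (1.20, 1.43 and −1.13, adjusted p-values 0.254, 0.105 and 0.288), and the last was lost without Amy (−0.88), Kimba (−1.22) or Birnur (−1.03) too, as was the first without Amy (0.94), Lissy (1.10) or Mara (1.09). TIMP1, an inhibitor of such proteases, was higher in luteolysis than in luteal regression (log2 ratio −3.07, SE 0.63, adjusted p = 0.0463) and had r = −0.58. Without Senta, Lissy or Mara it was no DEG (−2.79, −3.35 and −2.84). MMP1, a collagenase, was at 322 and 280 CPM in Kimba and Senta, at 0.225 CPM in Amy and at 0.0525 to 14.1 CPM in the other groups. Its log2 ratio was −4.81 in “luteal regression over luteolysis” (edgeR adjusted p = 0.176, no DEG) and −9.13 in “mid-gestation over luteolysis” (adjusted p = 0.0089; −9.72 without Amy). In “luteolysis over antigestagen” it was 7.30 (adjusted p = 0.0246; 7.87 without Amy), a call that was lost without Senta (6.98, adjusted p = 0.137). Groups overlapped in all 3.

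In nitric oxide signalling and vessels 3 of 14 genes had an identifier. NOS3, the endothelial nitric oxide synthase, was lower in luteal regression and at mid-gestation than in luteolysis (log2 ratios −2.20 and −1.38, edgeR adjusted p-values 0.0592 and 0.0601), and TEK, the angiopoietin receptor, was lower in luteal regression (−1.34, adjusted p = 0.0854). Of 19 hormone receptors 9 had an identifier. GHR, the growth hormone receptor, was lower in luteal regression and at mid-gestation than in luteolysis (−1.23 and −1.05, adjusted p-values 0.072 and 0.0313), IGF1R was lower at mid-gestation (−1.28, adjusted p = 0.0404) and FSHR was lower in luteolysis than after antigestagen (−1.08, adjusted p = 0.0743). Of 20 genes of steroidogenesis 4 had an identifier. CYP17A1, a steroid hydroxylase, was no DEG in any of the 6 contrasts. Its log2 ratio was 2.88 in “luteal regression over antigestagen” (edgeR adjusted p = 0.14) and 2.27 in “mid-gestation over antigestagen” (adjusted p = 0.305). GATA4 and SULT1E1, an estrogen sulfotransferase, rose in luteal regression (0.81 and 2.79, adjusted p-values 0.092 and 0.0833) and at mid-gestation (0.68 and 2.61, adjusted p-values 0.0671 and 0.0496) against luteolysis, as did GATA6 in luteal regression (0.88, adjusted p = 0.0898). SULT1E1 was no higher than 1.36 CPM in any dog. None of the calls of these 3 lists held without Senta, where for instance NOS3 was at −1.86 and −1.08, GHR at −0.90 and −0.75 and GATA4 at 0.75 and 0.59. Those of luteal regression did not hold without Lissy or Mara either (NOS3 −2.61 and −1.88). In “mid-gestation over luteolysis” NOS3 was lost without Kimba (−1.22) or Gold (−1.36), IGF1R without Kimba (−0.98) and GATA4 without Amy (0.59), Nescafe (0.68), Turgay (0.64) or Gold (0.62). In “luteal regression over luteolysis” GATA4 was lost without Amy (0.76) and GATA6 without Kimba (0.87). FSHR was lost without Kimba (−1.04), Birnur (−1.08), Seran (−1.04) or Zeynep (−0.90).

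Some markers of other cell types varied with RXFP1 and others did not, and their part in the result was not tested. In bulk tissue, fewer cells of a type and less RNA per cell cannot be told apart. Of 8 markers of fibroblasts and pericytes 3 had an identifier (PDGFRA, COL1A1 and COL1A2), and their sum was highest in Nescafe (11226 CPM) and lowest in Senta (1465 CPM), with COL1A2 the most abundant in every dog. In luteolysis it was 1851 CPM in Amy and 3331 in Kimba, and in luteal regression 4307 in Lissy and 5450 CPM in Mara. After antigestagen it was 6765 CPM in Suzan, 6227 in Birnur, 3276 in Seran, 3274 in Citir and 2621 CPM in Zeynep. At mid-gestation it was 7716 CPM in Gold, 5462 in Kurtulus, 4266 in Dardanel and 2605 CPM in Turgay. RXFP1 had r = 0.73 with PDGFRA, 0.71 with COL1A2 and 0.46 with COL1A1 over the 15 dogs, and 0.61, 0.59 and 0.44 for deviations from group means. The sums did not order the dogs as RXFP1 did: Citir, rank 3 in RXFP1, was among the lower dogs in these markers.

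Of 7 macrophage markers 3 had an identifier (MRC1, AIF1 and ADGRE1; MRC1 the most abundant). Their sum was 57.5 CPM in Lissy and 62.3 CPM in Mara, against 116 in Amy, 246 in Kimba and 160 CPM in Senta, and ran from 114 to 226 CPM after antigestagen and from 63.1 to 148 CPM at mid-gestation. MRC1, AIF1 and ADGRE1 had r = −0.33, −0.71 and −0.52 with RXFP1, and 0.20, −0.55 and −0.20 for deviations from group means. The 4 of 9 endothelial markers with an identifier, VWF the most abundant, summed to 266 and 276 CPM in luteal regression, to between 376 and 843 CPM in luteolysis, to 428 to 940 CPM after antigestagen and to 261 to 634 CPM at mid-gestation, where Turgay lay below both luteal regression dogs. Their r with RXFP1 was −0.49 for PECAM1, −0.42 for TEK, −0.28 for VWF and −0.09 for ROBO4, and −0.11, 0.08, 0.07 and −0.31 for deviations from group means. Among the markers read, none of these 2 lists was at 0 in any dog. MRC1 (log2 ratio −1.47), ADGRE1 (−2.88), PECAM1 (−1.86) and TEK (−1.34) were DEG in “luteal regression over luteolysis” (edgeR adjusted p-values 0.0854, 0.091, 0.0904 and 0.0854). PECAM1 was also one in “mid-gestation over luteolysis” (−1.24, adjusted p = 0.0906). The remaining lists were thinner. The 2 of 5 neutrophil markers summed to 0.718 and 4.40 CPM in luteal regression and to 2.85 to 67.3 CPM in luteolysis, the 2 of 6 T cell markers to between 2.55 and 19.7 CPM over all dogs, and the 1 of 5 smooth muscle markers, TAGLN, was at 60.3 CPM in Amy and at 1006 and 988 CPM in Kimba and Senta. Their r with RXFP1 was −0.37 for S100A9, −0.23 for CSF3R, −0.11 for CD3E, 0.05 for CD2 and −0.05 for TAGLN. For deviations from group means it was 0.01, 0.23, −0.51, −0.56 and 0.30, so that the T cell markers ran against RXFP1 within groups. None of the 3 erythrocyte markers had an identifier. CD2 was a DEG in “mid-gestation over luteolysis” (log2 ratio 1.65, adjusted p = 0.0364). CD2 (−1.38), TAGLN (2.32) and the follicle marker INHBA (1.42) were DEG in “luteolysis over antigestagen” (edgeR adjusted p-values 0.0899, 0.0992 and 0.0396). FSHR, the other follicle marker read, was lower there (−1.08). Leaving out Senta left 5 DEG among all genes in “luteal regression over luteolysis”, 112 in “mid-gestation over luteolysis” and 6 in “luteolysis over antigestagen”.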

How the data were processed

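Poly(A) RNA of 15 CL (RNA integrity numbers 7.2 to 9.5) was sequenced as single reads of 125 bp with a kit that does not mark strand, so that reads of overlapping antisense genes cannot be told apart. The authors deposited raw counts per Ensembl gene, made with STAR 2.5.1b on CanFam3.1 and with featureCounts. Of the 23630 genes 4296 have no read, and the 3148 largest values are rounded to 4 significant digits. CPM and log2 CPM were computed from these counts.

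Groups follow the condition label. All 15 dogs entered 1 edgeR 4.0.16 fit in R 4.3.3 (TMM, 14922 genes averaging 10 reads or more in 1 group). Each contrast was tested on genes that reach this count in 1 of its groups, with Benjamini-Hochberg adjustment. The SE of a log2 ratio was taken from its F statistic, and log2 CPM used a prior count of 2. Correlation p-values come from 1e+05 permutations. DESeq2 1.42.0, limma 3.58.1 (voom with quality weights, which change the test and the weight of each dog together), other scalings, filters and limits, fits of the compared groups alone and fits without each dog were alternatives. The procedure was tested on simulated data. No replicate pair agreed within sampling noise (chi-squared per degree of freedom at least 33.8). Each dog is 1 replicate, and the p-values of contrasts set group differences against the spread between dogs. In the main edgeR fit this spread was estimated over all 15 dogs and moderated across genes.

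RXFP1, the lists and the rule for named genes were chosen with earlier results of these data known. The rule took in RXFP1, ligands and receptors with an identifier, the other genes of its matrix list, list members called or of smallest p-value (at most 3 per list and contrast), the 6 highest and 4 lowest r, and the 4 highest r of deviations from group means. Not every gene picked by this rule is printed, and some list members are printed that it did not pick. Gene names come from identifier and name pairs in the study's supplementary tables, which cover 2980 of the genes in the fit, and relaxin was also looked up in RefSeq by its accession. The supplementary values were not used. A further luteal regression dog and sequences of RXFP1 were not analysed here.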

Additional observations from a re-analysis of the deposited data

Results flagged for a closer look

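Of 108 groups of 5 dogs examined (RXFP1, the other named genes and the marker sums), 8 held a dog whose distance to the nearest other dog exceeded 0.71 of the range of the group, where chance flags about 1 in 20. RXFP1 itself was not among them. RLN1 was at 2.78 CPM in Citir against 1.41 CPM in the next antigestagen dog. ENSCAFG00000009902, the gene of lowest r with RXFP1, was at 100 CPM in Dardanel against 65.1 CPM in the next mid-gestation dog. Seran, the antigestagen dog with the lowest RXFP1, stood apart in 4 values: TEK was at 143 CPM against 79.1 CPM, GATA4 at 66.6 CPM against 100.2 CPM, ADCY2 at 4.61 CPM against 13.3 CPM, and the sum of macrophage markers at 226 CPM against 140 CPM in the nearest dog. At mid-gestation the sum of neutrophil markers was 30.0 CPM in Gold against 8.73 CPM, and that of T cell markers 19.7 CPM in Dardanel against 10.2 CPM. The causes were not tested.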

How the results depend on the processing

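Group means, with 23 alternative values, have no limit to pass. EdgeR called no gene at all in 3 of the 6 contrasts. RXFP1 also missed the limit of 0.01 before adjustment there. Its edgeR p-values were 0.403 in “mid-gestation over antigestagen”, 0.214 in “luteal regression over mid-gestation” and 0.0645 in “luteal regression over antigestagen”. No log2 ratio of RXFP1 changed sign under any of the alternatives run, and 111 of 115 alternative values stayed on the same side of the limits. The exceptions became DEG: “luteal regression over luteolysis” with DESeq2 (2.23), with limma-voom and quality weights (2.56) and without Kimba (2.73), and “luteal regression over antigestagen” with limma-voom (1.40). The cause was not tested. Without 1 dog, the log2 ratio ran from 1.72 to 2.73 in “luteal regression over luteolysis”, from 0.95 to 1.90 in “mid-gestation over luteolysis”, from 0.02 to 0.81 in “mid-gestation over antigestagen”, from −1.47 to −0.55 in “luteolysis over antigestagen”, from 0.35 to 1.25 in “luteal regression over mid-gestation”, from 0.79 to 1.64 in “luteal regression over antigestagen” and from −2.29 to −1.28 for the difference between contrasts (luteolysis against luteal regression, antigestagen against mid-gestation). Luteal regression is left with 1 dog in 2 of these fits, which is then assumed to vary like the other groups. The r between RXFP1 and RLN1 turned to −0.0517 for deviations from group means and to −0.0130 without luteolysis, and reached 0.63 without mid-gestation.

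The number of DEG over all genes moved more. All limma-voom values include quality weights per dog, and the test and the weights were not changed separately. Against 754 in “luteal regression over luteolysis”, there were 1567 with DESeq2, 3646 with limma-voom, 197 at an adjusted p-value below 0.05, 0 in fits of only the 2 groups compared, 1593 without Amy, 5 without Senta, 0 without Lissy and 1 without Mara. Against 1197 in “mid-gestation over luteolysis”, there were 3220 with limma-voom, 583 at the stricter limit, 422 in fits of only these groups, and 2434, 474, 112, 735 and 703 without Amy, Kimba, Senta, Dardanel and Gold. Against 687 in “luteolysis over antigestagen”, there were 1486 with DESeq2, 2833 with limma-voom, 268 at the stricter limit, 3 in fits of only these groups, and 2169, 229, 6, 320 and 437 without Amy, Kimba, Senta, Birnur and Zeynep. The other 3 contrasts had 0 in edgeR. “Mid-gestation over antigestagen” had 87 with DESeq2, 18 with limma-voom, 8 without Citir and 6 without Kurtulus. “Luteal regression over mid-gestation” had 332 with DESeq2, 2741 with limma-voom, 770 in fits of only these groups and 1 without Mara. “Luteal regression over antigestagen” had 920 with DESeq2, 2408 with limma-voom, 91 without Citir, 3 and 2 with DESeq2 and upper-quartile scaling, and 1 each with the stricter filter, in fits of only these groups, without Suzan and without Mara. With upper-quartile scaling, the median log2 ratio of all genes shifted by 0.10 in “luteal regression over luteolysis”, and 42.9% of DEG were higher in luteal regression, against 29.8% with TMM. Of the other named genes, 613 alternative log2 ratios kept their side of the limits, 229 lost the call, 15 gained it and none changed sign. No paired analysis was possible because each dog belonged to 1 group and gave 1 library.

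Limits. With 2 and 3 dogs in the groups that differ most, the intervals of RXFP1 span several fold. RXFP1 had 26 to 365 reads per dog and RLN1 11 to 68, so that counting error weighs most on the ligand. Names cover 2980 of 14922 genes in the fit, all of them already selected in these dogs, so that the receptor's wider pathway was seen in part. Drug, day and pregnancy are tied to the groups, and cell composition was not measured.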
